A study of Mus musculus with 13 samples.

Results

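The genes described here were Rac1, Snx20, Arl8a, Srsf9, Ctbp1, Dapk3, Dexi, Mtch1, Alyref and Lamp1, which were 10 of the 21084 genes in the deposited count table. They were picked because their transcripts were higher after UC7-13D5 in these same libraries. Their differences between antibodies are therefore given as a description, with no test. All 10 passed the filter on low counts, as did 15835 genes in all.

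RNA was sequenced in bulk from gamma delta intraepithelial lymphocytes (IELs), sorted out of the small intestines of wild-type mice, in 13 libraries. The groups were UC7-PBS with 3 libraries, IgG-PBS with 3, UC7-IFNa with 3 and IgG-IFNa with 4. UC7 stands for 200 µg of UC7-13D5, a hamster antibody to the gamma delta T cell receptor, and IgG for 200 µg of Armenian hamster immunoglobulin. Both were given intraperitoneally 48 and 24 hours beforehand, or at one of these times, since the sources differ on this. At 5 hours before cells were taken, each mouse received either 1 µg of interferon alpha (IFNa) by vein or only the phosphate-buffered saline (PBS). UC7-13D5 is known from mice to lower the receptor at the cell surface without removing the cells. The labels call the libraries biological replicates. Neither age, sex nor any pooling of animals is stated there, so p-values measure only the spread between these libraries.

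IELs lie between the epithelial cells of the gut lining, move along that layer and carry cytotoxic granules. Movement depends on switches that turn actin assembly on and off, and granule release depends on lysosome-related membranes carried along microtubules. The 10 genes come from several such systems. Rac1 is a small GTPase of actin control, Dapk3 a kinase of the myosin machinery, and Snx20 an endosomal sorting protein. Arl8a and Lamp1 belong to the lysosome. Ctbp1, Srsf9 and Alyref act in the nucleus on transcription, splicing and mRNA export. Mtch1 sits in the outer mitochondrial membrane, and the function of Dexi is little known.

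Library totals ran between 19867201 and 26895876 estimated counts. The summed level of 10 gamma delta IEL markers, among them Trdc, Trgc1 and Cd3e, differed between antibodies with PBS. It ran from 51939 to 62161 CPM (counts scaled to the library total) in UC7-PBS and from 44692 to 49530 CPM in IgG-PBS. With IFNa it ran from 51297 to 65220 CPM in UC7 libraries and from 49844 to 61495 CPM in IgG libraries. Gzma and Gzmb were its largest parts, averaging 32538 and 12958 CPM in UC7-PBS and 24856 and 10974 CPM in IgG-PBS. In these groups Trdc averaged 208 and 187 CPM, and Cd3g 2635 and 2697 CPM. The antibody groups differed in sex-linked transcripts, which the labels do not mention. In the 6 UC7 libraries 4 Y-linked transcripts summed to between 132 and 329 CPM and Xist was at most 1.08 CPM. In the IgG-PBS libraries the Y-linked sum was at most 0.31 CPM and Xist was at least 265 CPM. IgG-IFNa libraries 1 and 2 resembled IgG-PBS, with Xist at 204 and 215 CPM and Y-linked sums of 2.15 and 1.67 CPM. IgG-IFNa libraries 3 and 4 held both kinds, with Y-linked sums of 210.0 and 320.3 CPM and Xist at 68.3 and 23.4 CPM. With PBS, antibody and these transcripts therefore cannot be told apart. With IFNa, Xist also separated the antibodies, at 0.31 CPM or less in UC7 libraries and 23.4 CPM or more in IgG libraries. UC7-IFNa library 2 also stood apart, with 1.14% of its counts from Rn18s and the far end of the first principal component, which held 25.4% of the variance.

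In every library of either UC7 group, each of the 10 genes was higher than in every IgG library. Of all tested genes, 6.6% had all UC7-PBS libraries above all IgG-PBS libraries, 3.73% had all UC7-IFNa libraries above all IgG-IFNa libraries, and 0.524% had all 6 UC7 libraries above all 7 IgG libraries. Since the genes were picked on these values, nothing is read from that count. The median log2 fold change of the 10 genes, UC7 over IgG, was 1.63 with PBS and 2.08 with IFNa, against medians of -0.0099 and 0.011 over all tested genes. In bulk RNA, fewer cells of a type and less RNA per cell cannot be told apart.

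**Figure D1:**
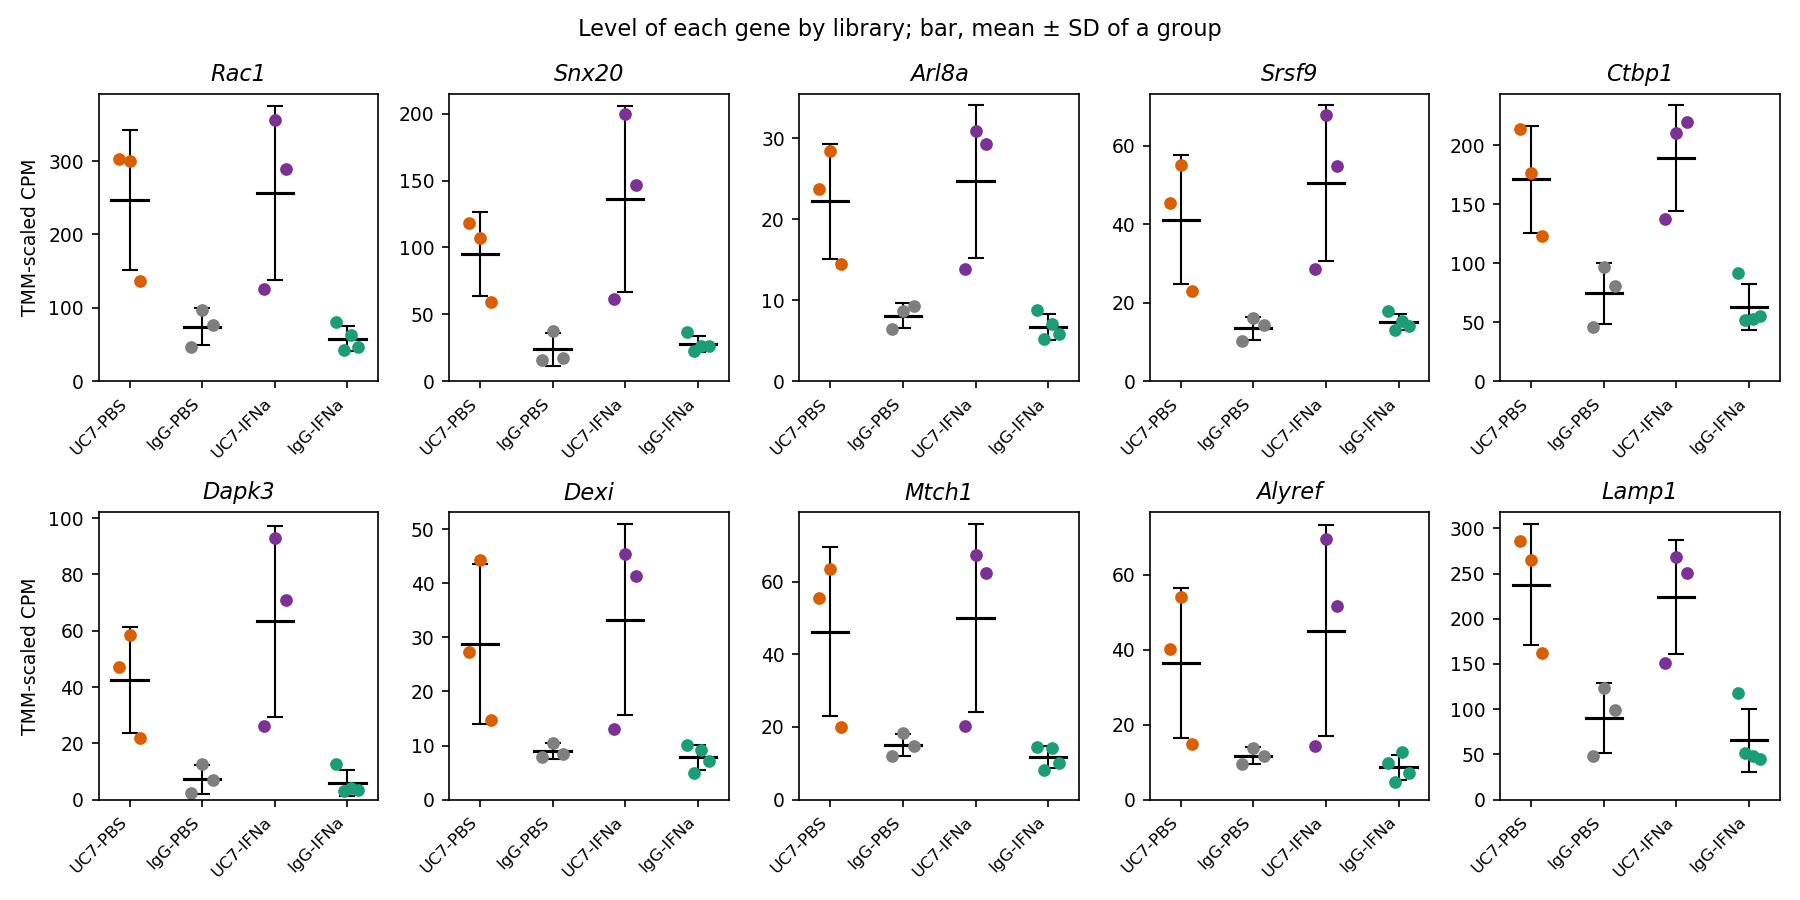
Level of each of the 10 genes in TMM-scaled CPM (vertical axes, linear, each from 0) in the libraries of UC7-PBS, IgG-PBS, UC7-IFNa and IgG-IFNa. Points are libraries, and bars are the group mean ± SD (n = 3, 3, 3 and 4). In every panel all UC7 points lie above all IgG points, and 1 library of each UC7 group lies well below the other two.

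Rac1, when loaded with GTP, drives branched actin through the WAVE complex. The gene (ENSMUSG00000001847) lies on the minus strand of chromosome 5 at 143489389 to 143513792 in build mm39. With PBS, Rac1 stood at 303, 300.1 and 137 CPM in UC7 libraries 1 to 3 and at 47.2, 97.5 and 77.1 CPM in IgG libraries 1 to 3. With IFNa it stood at 126, 356 and 289 CPM in UC7 libraries 1 to 3 and at 80.2, 42.2, 63.0 and 47.0 CPM in IgG libraries 1 to 4. UC7-PBS library 3 and UC7-IFNa library 1 were the low ones among UC7 libraries, and even these were above all IgG libraries. The log2 fold change, UC7 over IgG, was 1.74 (SE 0.39) with PBS and 2.14 (SE 0.36) with IFNa. In group means the order was UC7-IFNa at 257 ± 119 CPM, UC7-PBS at 247 ± 95 CPM, IgG-PBS at 73.9 ± 25.3 CPM and IgG-IFNa at 58.1 ± 17.2 CPM (SD, n = 3, 3, 3 and 4). The 2 UC7 groups overlapped, as did the 2 IgG groups.

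Dapk3 is a serine/threonine kinase that phosphorylates the myosin regulatory light chain and so promotes contraction. It had the largest antibody difference of the 10 and the lowest level in IgG libraries. The gene (ENSMUSG00000034974) lies on the plus strand of chromosome 10 at 81018839 to 81029032 in mm39. With PBS, Dapk3 stood at 47.2, 58.4 and 21.8 CPM in UC7 libraries 1 to 3 and at 2.37, 12.6 and 6.91 CPM in IgG libraries 1 to 3. With IFNa it stood at 26.2, 93.0 and 70.8 CPM in UC7 libraries 1 to 3 and at 12.7, 3.01, 3.99 and 3.60 CPM in IgG libraries 1 to 4. The IgG libraries spread widely, IgG-PBS library 1 being lowest and IgG-IFNa library 1 standing well above the rest of its group. The log2 fold change was 2.55 (SE 0.70) with PBS and 3.44 (SE 0.65) with IFNa. The count behind the lowest value, in IgG-PBS library 1, was 64.

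Snx20 is a sorting nexin that binds the tail of the adhesion ligand PSGL-1, encoded by Selplg, and brings it to endosomes. The gene (ENSMUSG00000031662) lies on the minus strand of chromosome 8 at 89353191 to 89362757 in mm39. With PBS, Snx20 stood at 118, 107 and 59.0 CPM in UC7 libraries 1 to 3 and at 16.2, 37.8 and 17.2 CPM in IgG libraries 1 to 3. With IFNa it stood at 61.7, 199.5 and 146 CPM in UC7 libraries 1 to 3 and at 36.8, 22.4, 26.2 and 26.1 CPM in IgG libraries 1 to 4. The lowest UC7 library in each arm was again PBS library 3 and IFNa library 1. The log2 fold change was 2.00 (SE 0.40) with PBS and 2.29 (SE 0.37) with IFNa.

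Lamp1 encodes a heavily glycosylated protein of the lysosome membrane, which also lines cytotoxic granules and reaches the cell surface when they are released. The gene (ENSMUSG00000031447) lies on the plus strand of chromosome 8 at 13209161 to 13225339 in mm39. With PBS, Lamp1 stood at 286, 265 and 162 CPM in UC7 libraries 1 to 3 and at 48.3, 123 and 99.3 CPM in IgG libraries 1 to 3. With IFNa it stood at 151, 269 and 251 CPM in UC7 libraries 1 to 3 and at 118, 51.1, 48.5 and 44.8 CPM in IgG libraries 1 to 4. Here the highest IgG library of each arm, PBS library 2 and IFNa library 1, came near the lowest UC7 library of that arm. The log2 fold change was 1.40 (SE 0.39) with PBS and 1.77 (SE 0.36) with IFNa. Lamp1 was the gene whose UC7-PBS mean, 238 ± 66.7 CPM, lay above its UC7-IFNa mean, 224 ± 63.1 CPM (SD, n = 3 each), by less than the spread in either group.

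Arl8a is a lysosomal GTPase of the Arf-like family that couples lysosomes to kinesin and so moves them outward along microtubules. The gene (ENSMUSG00000026426) lies on the plus strand of chromosome 1 at 135074562 to 135084008 in mm39. It averaged 22.2 ± 7.12 CPM in UC7-PBS and 8.10 ± 1.52 CPM in IgG-PBS (SD, n = 3 each). With IFNa it averaged 24.7 ± 9.42 CPM in UC7 libraries (SD, n = 3) and 6.72 ± 1.60 CPM in IgG libraries (SD, n = 4). All UC7 libraries were at 13.8 CPM or more and all IgG libraries at 9.29 CPM or less.

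Ctbp1 is a corepressor that links DNA-binding repressors such as Zeb proteins to histone-modifying enzymes. The gene (ENSMUSG00000037373) lies on the minus strand of chromosome 5 at 33405067 to 33432339 in mm39. With PBS, Ctbp1 stood at 214, 176 and 123 CPM in UC7 libraries 1 to 3 and at 46.0, 96.7 and 80.5 CPM in IgG libraries 1 to 3. With IFNa it stood at 138, 210.4 and 220.0 CPM in UC7 libraries 1 to 3 and at 91.6, 52.2, 52.4 and 55.1 CPM in IgG libraries 1 to 4. Its antibody difference was the smallest of the 10, with a log2 fold change of 1.20 (SE 0.30) with PBS and 1.59 (SE 0.27) with IFNa. IgG-IFNa library 1 was far above the rest of its group.

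Alyref is an adaptor of the TREX complex that hands spliced mRNA to the export receptor. The gene (ENSMUSG00000025134) lies on the minus strand of chromosome 11 at 120482947 to 120489192 in mm39. With PBS, Alyref stood at 40.3, 54.2 and 14.9 CPM in UC7 libraries 1 to 3 and at 9.39, 13.9 and 11.7 CPM in IgG libraries 1 to 3. With IFNa it stood at 14.2, 69.5 and 51.6 CPM in UC7 libraries 1 to 3 and at 9.65, 4.79, 12.8 and 7.23 CPM in IgG libraries 1 to 4. The groups did not overlap, but UC7-PBS library 3 and UC7-IFNa library 1 were close to the highest IgG libraries. The highest UC7-IFNa library was 4.89 times the lowest. The log2 fold change was 1.64 (SE 0.52) with PBS and 2.39 (SE 0.48) with IFNa.

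Srsf9 is a splicing factor of the serine/arginine-rich (SR) family. The gene (ENSMUSG00000029538) lies on the plus strand of chromosome 5 at 115465236 to 115471140 in mm39. Srsf9 averaged 41.2 ± 16.5 CPM in UC7-PBS and 13.6 ± 2.93 CPM in IgG-PBS (SD, n = 3 each). With IFNa it averaged 50.5 ± 19.9 CPM in UC7 libraries (SD, n = 3) and 15.1 ± 2.08 CPM in IgG libraries (SD, n = 4). Its IgG libraries were the least spread in ratio of the 10 genes with IFNa, at 13.0 to 17.8 CPM, while its UC7 libraries in that arm ran from 28.7 to 67.8 CPM.

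Mtch1 encodes a mitochondrial carrier homologue of the outer membrane. The gene (ENSMUSG00000024012) lies on the minus strand of chromosome 17 at 29551046 to 29566909 in mm39. Mtch1 averaged 46.3 ± 23.2 CPM in UC7-PBS and 15.1 ± 3.10 CPM in IgG-PBS (SD, n = 3 each). With IFNa it averaged 49.9 ± 25.9 CPM in UC7 libraries (SD, n = 3) and 11.8 ± 3.14 CPM in IgG libraries (SD, n = 4). The lowest UC7 libraries, at 19.9 CPM with PBS and 20.2 CPM with IFNa, lay just above the highest IgG library at 18.3 CPM.

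Dexi was first described as a transcript induced by dexamethasone and lies beside Clec16a and Ciita. The gene (ENSMUSG00000038055) is on the minus strand of chromosome 16 at 10320395 to 10360919 in mm39. Dexi averaged 28.7 ± 14.8 CPM in UC7-PBS and 8.96 ± 1.42 CPM in IgG-PBS (SD, n = 3 each). With IFNa it averaged 33.3 ± 17.6 CPM in UC7 libraries (SD, n = 3) and 7.84 ± 2.34 CPM in IgG libraries (SD, n = 4). Its lowest UC7 library, at 13.1 CPM, was above its highest IgG library, at 10.6 CPM.

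Divided by the length of all annotated exons of a gene, levels can be set roughly against each other between genes. That length can exceed the transcript: for Mtch1 it was 5615 bases, against 2292 bases in its longest transcript. The order of genes with close values is therefore uncertain. Lamp1 was highest in UC7-PBS at 88.8 CPM per kb of exon, followed by Rac1 at 54.9, Ctbp1 at 38.2 and Srsf9 at 24.9 CPM per kb. In IgG-PBS the same scale gave Lamp1 at 33.7, Ctbp1 at 16.6, Rac1 at 16.4 and Srsf9 at 8.20 CPM per kb. Dapk3 was the fifth of the 10 in UC7-PBS, at 16.8 CPM per kb, and the eighth in IgG-PBS, at 2.88 CPM per kb. The other genes lay between 8.24 and 14.7 CPM per kb in UC7-PBS and between 2.67 and 3.68 CPM per kb in IgG-PBS.

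The 10 genes varied together from library to library, also within groups. Centred on each gene's own mean log2 CPM, their average was 1.21 and 1.37 in UC7-PBS libraries 1 and 2 but 0.17 in library 3. It was 1.67 and 1.45 in UC7-IFNa libraries 2 and 3 but 0.20 in library 1. In the IgG libraries it ran from -1.39 to -0.29. The libraries that were low for one gene were thus low for the others: UC7-PBS library 3 and UC7-IFNa library 1 ranked the fifth or the sixth of 13 for each gene. Over the 13 libraries Pearson's r between 2 of the genes ran from 0.87 to 0.99 over 45 pairs, with a median of 0.96. For deviations from the group means it ran from 0.60 to 0.98, with a median of 0.88. These correlations are a description, since the points share library, depth and, for the first set, the antibody difference by which the genes were picked.

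**Figure D2:**
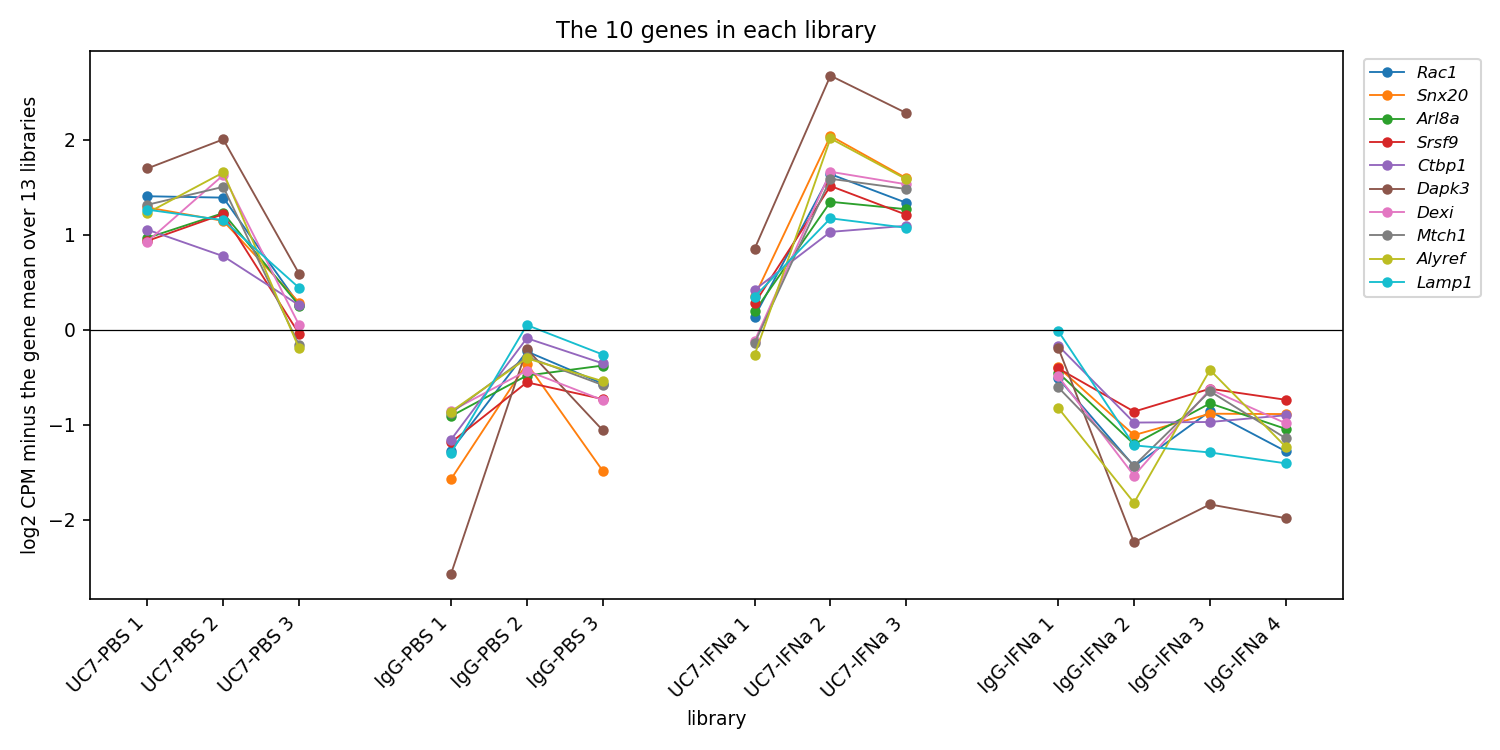
log2 CPM of each of the 10 genes minus its mean over 13 libraries (vertical axis) in each library, grouped as UC7-PBS, IgG-PBS, UC7-IFNa and IgG-IFNa. Lines only join the values of a gene within a group; UC7-PBS library 3 and UC7-IFNa library 1 lie between -0.27 and 0.85 for all 10 genes.

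Rac1 followed the rest of the set most closely, with r = 0.996 against the mean of the other members, and Lamp1 least closely, with r = 0.949. Among 8689 other genes whose log2 CPM averaged 3 or more, those most like the mean of the set over the 13 libraries were Fam241a (r = 0.985), Ldb1 (r = 0.985), Suds3 (r = 0.981), Adrb1 (r = 0.981) and Siah2 (r = 0.974). Those most like Rac1 were Ldb1 (r = 0.991), Adrb1 (r = 0.985), Fam241a (r = 0.979), Cited2 (r = 0.976) and Pptc7 (r = 0.974). The averaged UC7 over IgG log2 fold changes of these like genes ran from 1.08 (SE 0.16, Pptc7) to 1.88 (SE 0.29, Cited2). Correlation over the 13 libraries includes the antibody difference by which the set was picked, so genes with a like difference rank high. The list is a description only. Ldb1 is a LIM-domain binding cofactor, Suds3 a subunit of the Sin3 corepressor complex, and Adrb1 the beta-1 adrenergic receptor.

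The IFNa comparison, averaged over both antibodies, was not used to pick the genes and was tested. None of the 10 genes passed the threshold (edgeR quasi-likelihood test, Benjamini-Hochberg adjusted p under 0.05), where 1.99% of all tested genes did. Of the 10, 0 had an unadjusted p under 0.05, against 14.8% of all tested genes, and DESeq2 also called none. Snx20 had the largest value, a log2 fold change, IFNa over PBS, of 0.38 (95% interval -0.19 to 0.95, adjusted p = 0.583, edgeR). Lamp1 had the lowest, at -0.27 (95% interval -0.83 to 0.28, adjusted p = 0.71, edgeR). Rac1 was at -0.15 (95% interval -0.69 to 0.40). The other genes lay between -0.13 and 0.22. Dapk3 had the widest interval, -0.86 to 1.12, so differences of that size with IFNa were not detectable here. The median of the 10 was -0.055, against 0.0053 for all tested genes.

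In the UC7 arm alone the IFNa difference was positive for 9 of the 10 genes, with a median log2 value of 0.18, against 0.022 for all tested genes. In the IgG arm it was positive for 2 of 10, with a median of -0.30, against -0.012 for all tested genes. Snx20 and Srsf9 were those with a positive value in both arms, at 0.52 (SE 0.39) and 0.29 (SE 0.31) after UC7-13D5 and at 0.23 (SE 0.37) and 0.15 (SE 0.30) after IgG. The interaction, that is the antibody difference with IFNa minus that with PBS, was positive for all 10, at 0.14 for Srsf9 to 0.90 for Dapk3, and smaller than its SE for all but Alyref, at 0.74 (SE 0.69). These 10 values share libraries and move together, so they do not count as 10 separate observations. The interaction and the values by arm also use the libraries of the antibody differences by which the genes were picked. That choice can itself shift their signs, so nothing is read from the counts of signs. Of all tested genes, 0 passed the threshold for the interaction in edgeR, while 3.17% had an unadjusted p under 0.05, and DESeq2 called 2.

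**Figure D3:**
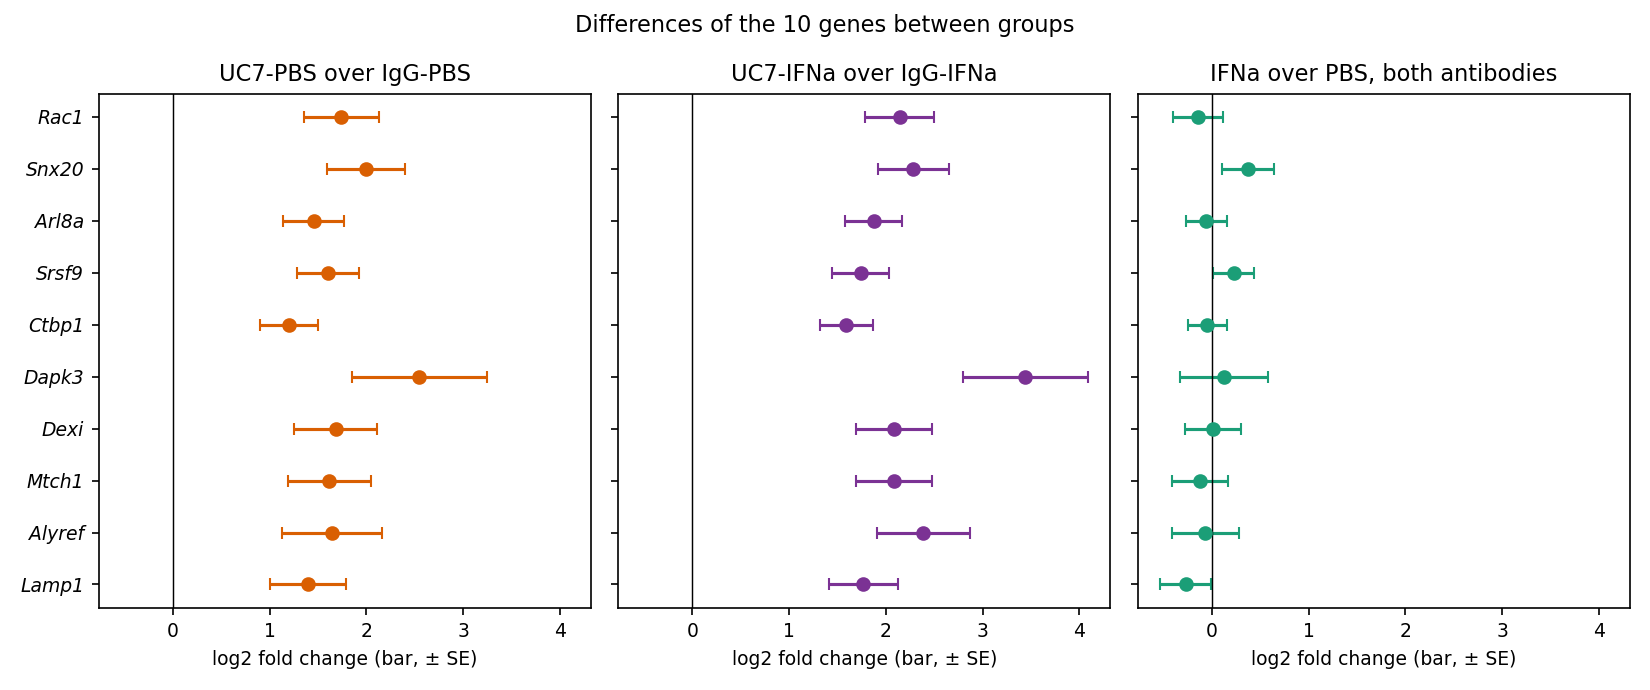
log2 fold changes of the 10 genes (horizontal axes; points with bars of ± SE) for UC7-PBS over IgG-PBS, UC7-IFNa over IgG-IFNa, and IFNa over PBS averaged over both antibodies. The antibody values, by which the genes were picked, lie between 1.20 and 3.44, and the IFNa values between -0.27 and 0.38.

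IgG-IFNa libraries 3 and 4 held Y-linked transcripts, as the UC7-IFNa libraries did, but also Xist, at 68.3 and 23.4 CPM. The UC7-IFNa libraries held Xist at 0.31 CPM or less, so these libraries are not matched for sex-linked transcripts. The part of sex in the differences of the 10 genes was not tested. The values that follow cannot decide it, since the genes were picked by the antibody difference in these libraries and Xist still separated the antibodies. In IgG-IFNa libraries 3 and 4, the centred mean of the 10 genes was -0.90 and -1.16, within the range of libraries 1 and 2, at -0.41 and -1.39. With libraries 1 and 2 left out, the median UC7-IFNa over IgG-IFNa log2 fold change of the 10 genes was 2.10, against 2.08 with all libraries. Rac1 was then at 2.22, Dapk3 at 4.05, Lamp1 at 2.26 and Alyref at 2.17. With the library's share of Y-linked transcripts as a covariate, the median of the 10 with IFNa was 2.18. With PBS no such adjustment can be made from the libraries of that arm. Without UC7-IFNa library 2, the median with IFNa was 1.79.

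**Figure D4:**
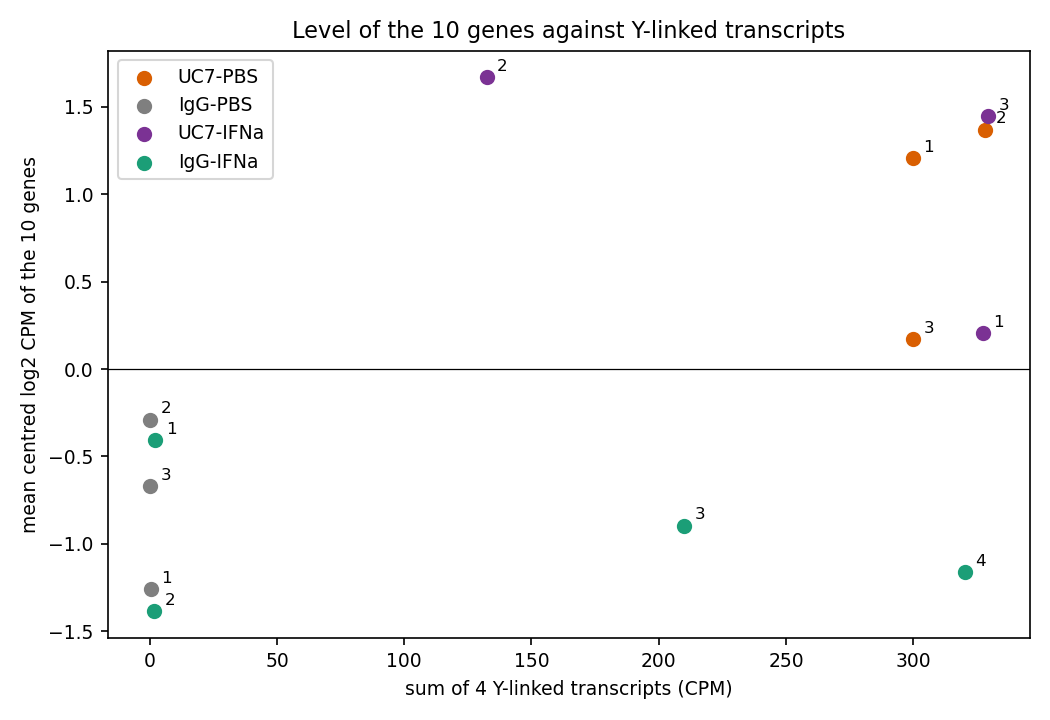
Mean over the 10 genes of log2 CPM centred on 13 libraries (vertical axis) against the sum of 4 Y-linked transcripts in CPM (horizontal axis); points are libraries of the 4 groups, numbered by replicate. IgG-IFNa libraries 3 and 4 lie at Y-linked sums of 210.0 and 320.3 CPM and at -0.90 and -1.16 on the vertical axis, among the other IgG libraries. Both also held Xist, at 68.3 and 23.4 CPM. The genes were picked by the antibody difference, so IgG libraries lie low by that choice.

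Markers of secretory epithelium also differed between the antibody groups with PBS. The sum of 10 such markers, among them Muc2, Zg16 and Lyz1, was 795 to 1839 CPM in UC7-PBS and 77.9 to 522 CPM in IgG-PBS. With IFNa it was 336 to 974 CPM in UC7 libraries and 549 to 1101 CPM in IgG libraries, which overlapped. Their part in the differences of the 10 genes was not tested. Sums of 9 absorptive enterocyte markers were 182 to 236 CPM in UC7-PBS, 146 to 209 CPM in IgG-PBS, 167 to 241 CPM in UC7-IFNa and 158 to 216 CPM in IgG-IFNa.

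Genes related to the 10 by family, complex or place were examined from 9 lists that held none of the 10 themselves. Of 210 such genes tested, 1 passed the threshold for UC7 over IgG averaged over PBS and IFNa, or 0.476%, against 0.657% of all tested genes (edgeR). None passed with PBS alone or with IFNa alone by edgeR, where 0.00632% and 0.0758% of all tested genes did. For unadjusted p under 0.05 in the averaged comparison, which 8.06% of all tested genes had, the counts by list ran from 0 to 3. The median log2 fold change of the 210 was -0.0049.

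**Figure D5:**
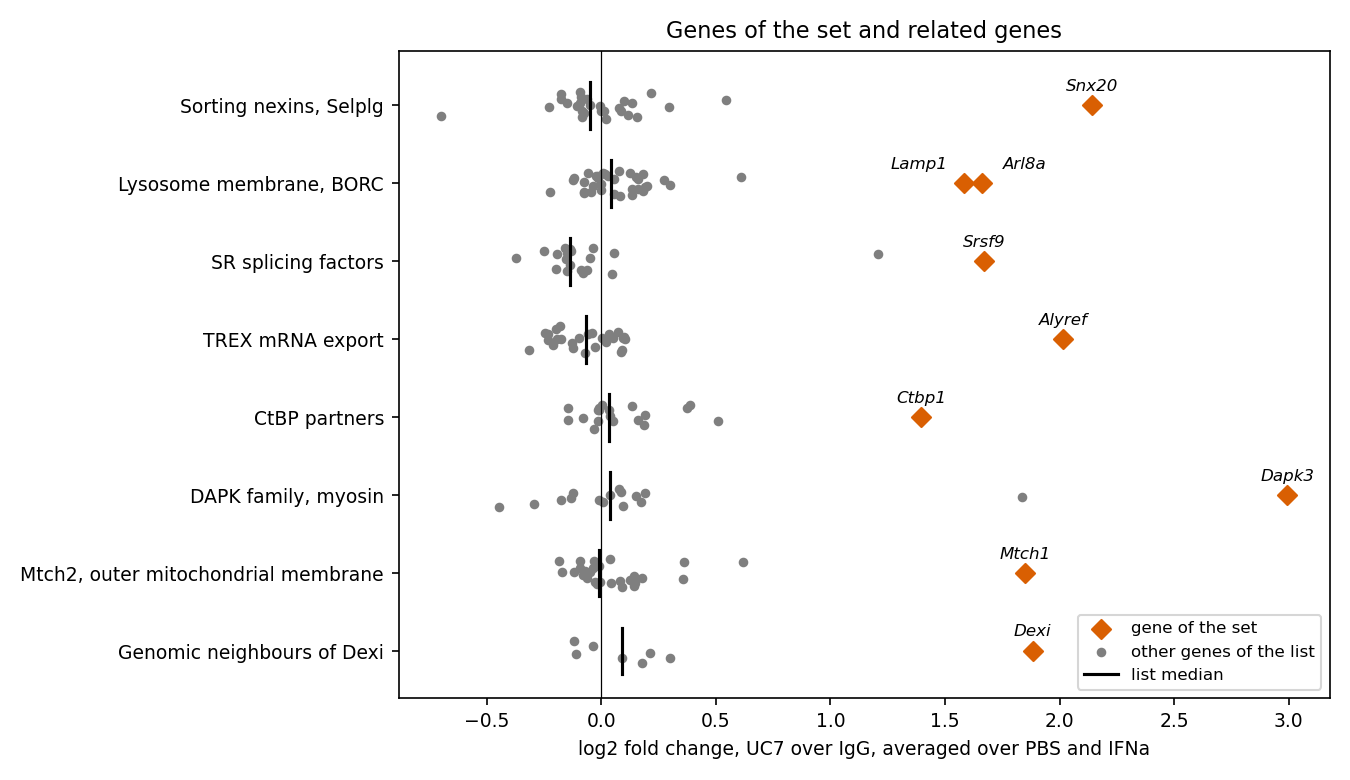
log2 fold change, UC7 over IgG averaged over PBS and IFNa (horizontal axis), of the 10 genes other than Rac1 (diamonds) and of related genes by list (grey points, black bar at the list median; rows are lists, vertical scatter is only for legibility). Diamonds lie between 1.40 and 2.99, by the way they were picked, and the list medians between -0.13 and 0.090.

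Rac2, the blood-cell paralogue of Rac1, averaged 1361 ± 197 CPM in UC7-PBS and 1232 ± 231 CPM in IgG-PBS (SD, n = 3 each), with an averaged log2 fold change of 0.33 (SE 0.17, adjusted p = 0.678, edgeR). Of the sorting nexins and Selplg, 0 of 27 passed. Selplg, the partner of Snx20, was at 0.15 (SE 0.10), Snx18 at 0.54 (SE 0.16), Snx12 at 0.29 (SE 0.12) and Snx9 at -0.70 (SE 0.20).

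Of 34 genes of the lysosome membrane and of lysosome positioning, 0 passed for the antibody. Arl8b, the paralogue of Arl8a, was at 0.027 (SE 0.097), with 72.5 ± 5.00 CPM in UC7-PBS and 69.8 ± 5.10 CPM in IgG-PBS (SD, n = 3 each). Lamp2, the paralogue of Lamp1, was at 0.083 (SE 0.11), with 59.2 ± 5.18 CPM in UC7-PBS and 55.2 ± 4.88 CPM in IgG-PBS (SD, n = 3 each). The genes with the smallest p in that list were Cd63 at 0.61 (SE 0.22), Lamtor1 at 0.27 (SE 0.18) and Bloc1s1 at 0.30 (SE 0.20). Cd63, a tetraspanin of late endosomes and granules, rose with IFNa by 0.91 on the log2 scale (SE 0.22, adjusted p = 0.04995, edgeR), a call that 4 of 21 alternatives kept.

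Among 19 SR splicing factors and their kinases, Srsf2 rose after UC7-13D5 by 1.21 on the log2 scale (SE 0.21, adjusted p = 0.01654, edgeR). It averaged 216 ± 79.8 CPM in UC7-PBS and 102 ± 28.3 CPM in IgG-PBS (SD, n = 3 each), and 261 ± 73.1 CPM in UC7-IFNa (SD, n = 3) and 104 ± 29.6 CPM in IgG-IFNa (SD, n = 4). Over the 13 libraries its r with the mean of the 10 genes was 0.945. The call was lost without UC7-PBS library 2, without IgG-PBS library 1 or 3, and without UC7-IFNa library 2, with log2 values of 1.05 to 1.18 and adjusted p between 0.06207 and 0.08184 in edgeR. It was also lost with the Y-linked share as a covariate, at 1.19 (adjusted p = 0.2387, edgeR). With the replicate number as a block it was lost too, at 1.20 (adjusted p = 0.09901, edgeR). No other gene of the list passed, and the list median was -0.13. Srsf6 was at -0.25 (SE 0.15) and Srsf12 at -0.37 (SE 0.14).

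Of 26 genes of mRNA export, where Alyref belongs, 0 passed, with a median of -0.065, and the values ran from -0.32 to 0.10. Those with the smallest p were Ddx19b at -0.23 (SE 0.12), Fyttd1 at -0.23 (SE 0.13) and Thoc5 at -0.20 (SE 0.12). Of 19 partners of Ctbp1, 0 passed; Kdm1a, the histone demethylase, was at 0.51 (SE 0.16), Zeb2 at 0.39 (SE 0.17) and Ikzf1 at 0.19 (SE 0.089). Ctbp2, its paralogue, was at 0.19 (SE 0.34) from a low level of 1.36 CPM in UC7-PBS and 0.948 CPM in IgG-PBS.

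Of 15 genes of the Dapk family and of myosin light chain control, 0 passed. Dapk2 was at 0.15 (SE 0.13) and Dapk1, with 0.352 CPM in UC7-PBS and 0.484 CPM in IgG-PBS, at 0.0069 (SE 0.62). Pawr, which binds Dapk3, was at 1.84 (SE 0.61, adjusted p = 0.3145, edgeR), from 2.64 ± 0.830 CPM in UC7-PBS and 0.708 ± 0.427 CPM in IgG-PBS (SD, n = 3 each). Atf4 was at -0.29 (SE 0.11) and Stk17b at -0.18 (SE 0.10). Of 27 genes of the outer mitochondrial membrane, 0 passed; Mtch2, the paralogue of Mtch1, was at 0.14 (SE 0.11), Mcl1 at 0.36 (SE 0.17), Tomm6 at 0.36 (SE 0.22) and Bak1 at 0.62 (SE 0.37).

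Of 7 tested neighbours of Dexi on its chromosome, 0 passed for the antibody. Clec16a was at 0.18 (SE 0.14), Ciita at 0.21 (SE 0.26) and Litaf at 0.30 (SE 0.10). Litaf, a protein of late endosomes, rose with IFNa by 0.47 on the log2 scale (SE 0.10, adjusted p = 0.02981, edgeR), and 10 of 21 alternatives kept that call. Cd63 and Litaf were the 2 of 210 related genes past the threshold for IFNa, or 0.952%, against 1.99% of all tested genes, and 17 were past it without UC7-IFNa library 2, where 933 of 16224 tested genes were.

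Some counts of the 10 genes can take reads from elsewhere. Dexi overlaps Ciita (3.75 CPM on average) and Lamp1 overlaps Grtp1 (2.64 CPM), each on the opposite strand. Rac1 overlaps Daglb on the opposite strand, at 25.3 CPM against 148 CPM for Rac1, and Daglb was at -0.18 (SE 0.16) for UC7 over IgG. No source used here says whether counting used strand. The estimated counts of Rac1 and Lamp1 were not whole in 13 libraries and those of Ctbp1 in 6, by more than 0.01. No source used here says how reads matching several loci were divided, so these 3 levels are less certain.

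The transcripts had a median GC content of 52.5%, ranging between 47.0% for Alyref and 63.3% for Dapk3, against a median of 49.3% for tested genes, and 7 of the 10 were above that median. Over all genes, the median averaged log2 fold change was -0.066 in the 10% of genes lowest in GC and 0.082 in the 10% highest. The median exonic length was 3596 bases for the 10 and 3620 bases for tested genes. Lengths and GC came from GENCODE annotation of build GRCm38 matched by gene identifier.

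Since the 10 genes moved together, their promoters were read for 4 short motifs on both strands: CACGTG (E-box), CCAAT, TGACGTCA (cAMP response element) and GGGCGG (GC box). RefSeq promoters of build GRCm38.p6, 250 bases before to 50 after the start, were matched by symbol for 8 of the 10 genes, with 11 starts. No motif of the 4 was in all 11, but GGGCGG was missing only from Lamp1 and from start 3 of Dapk3. The promoters with the most copies of a motif are shown 5′ to 3′, with motif copies in capitals on either strand. Lamp1 (chr8:13158911-13159210, plus strand) has 4 copies of CACGTG, the core of an element known from lysosomal gene promoters. The first Dapk3 start (chr10:81182757-81183056, plus strand) has 4 of CCAAT, 1 of TGACGTCA and 1 of GGGCGG. Dexi (chr16:10543005-10543304, minus strand) has 3 of CCAAT and 2 of GGGCGG, and Arl8a (chr1:135146584-135146883, plus strand) has 5 of GGGCGG.
Lamp1: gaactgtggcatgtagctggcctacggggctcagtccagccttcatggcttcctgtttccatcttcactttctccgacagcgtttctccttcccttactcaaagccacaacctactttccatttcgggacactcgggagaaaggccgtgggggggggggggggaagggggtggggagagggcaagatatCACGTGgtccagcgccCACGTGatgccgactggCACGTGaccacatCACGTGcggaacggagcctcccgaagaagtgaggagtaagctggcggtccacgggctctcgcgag
Dapk3: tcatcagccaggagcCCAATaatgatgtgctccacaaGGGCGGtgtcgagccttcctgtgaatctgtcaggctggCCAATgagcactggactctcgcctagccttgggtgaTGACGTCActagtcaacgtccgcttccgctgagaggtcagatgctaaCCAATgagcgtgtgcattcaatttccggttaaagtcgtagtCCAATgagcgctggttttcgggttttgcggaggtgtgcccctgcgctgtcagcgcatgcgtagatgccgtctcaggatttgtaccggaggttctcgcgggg
Dexi: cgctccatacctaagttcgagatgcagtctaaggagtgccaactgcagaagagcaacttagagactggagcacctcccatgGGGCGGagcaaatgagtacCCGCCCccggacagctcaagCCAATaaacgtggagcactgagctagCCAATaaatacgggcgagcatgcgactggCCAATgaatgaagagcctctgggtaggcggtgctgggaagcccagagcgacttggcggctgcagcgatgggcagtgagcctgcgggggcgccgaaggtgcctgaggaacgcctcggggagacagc
Arl8a: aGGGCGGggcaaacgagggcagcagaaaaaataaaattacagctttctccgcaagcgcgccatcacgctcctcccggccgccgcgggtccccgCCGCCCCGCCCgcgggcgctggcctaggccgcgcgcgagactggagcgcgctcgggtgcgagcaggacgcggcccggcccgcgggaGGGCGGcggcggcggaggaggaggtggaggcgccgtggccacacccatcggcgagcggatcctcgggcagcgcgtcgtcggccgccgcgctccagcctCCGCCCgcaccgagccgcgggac

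Of 32851 promoters of the same length, 0.0244% held at least 4 copies of CACGTG, and 7.15% at least 1. At least 4 copies of CCAAT were in 1.06%, at least 3 in 3.37% and at least 1 in 37.4%. TGACGTCA was in 1.79%. At least 4 copies of GGGCGG were in 5.49% and at least 1 in 35.7%. The 11 starts had a median GC content of 64.3%, against 52.7% for all promoters. Among the 11 starts Lamp1 alone held CACGTG and the first Dapk3 start alone held TGACGTCA. A match is a string of letters and not a binding site, and these promoters were picked for display by their motif counts.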

How the data were processed

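Gene counts of 13 bulk RNA libraries were analysed. The kits named in the labels' protocols were RNeasy and SMART-Seq HT. Partek, DESeq2, STAR 2.7.8a and build mm39 are named, with no roles, in the submitters' processing notes. The authors deposited expected counts per gene, 37.4% of them not whole (tolerance 1e-09), and a second table with a signal per gene, that is, counts divided by 1 factor per library, for 11281 genes.

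Counts were rounded, and genes were kept with edgeR's filterByExpr at a minimum count of 10, leaving 15835. Sizes were scaled by TMM, and 1 quasi-likelihood model took all 13 libraries, each group having its own coefficient (edgeR 4.0.16, R 4.3.3). Adjusted p is Benjamini-Hochberg over all tested genes, with a threshold of 0.05. SE is the log2 fold change divided by the square root of F, in size. Levels are TMM-scaled CPM, except sex-linked and cell type marker sums, which are CPM of the library total. log2 CPM used a prior count of 2.

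Alternatives were DESeq2 1.42.0, other scaling, no filter, limma 3.58.1 on the authors' signal as log2(value + 1), a replicate block, a Y-linked covariate, and leaving out libraries. The fit was tested on simulated counts with a single spread for all genes and no correlation between genes. That test does not cover genes that vary together, as the 10 genes do. Of each list of related genes, up to 3 with the smallest p for the averaged antibody difference are named, beside paralogues and partners chosen by kinship, outside that rule and after their values were seen. A list of related genes is not reported here by itself. The 10 genes, the lists and the alternatives were chosen with earlier results of these data known. Alternatives for the related genes were chosen after seeing the data.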

Additional observations from a re-analysis of the deposited data

Results flagged for a closer look

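In the group of 4 IgG-IFNa libraries, library 1 stood apart from the other three for 3 of the 10 genes. It held Ctbp1 at 91.6 CPM, where the others held at most 55.1 CPM. It held Dapk3 at 12.7 CPM, where the others held at most 3.99 CPM, and Lamp1 at 118 CPM, where the others held at most 51.1 CPM. The gap to the nearest library was 0.927, 0.899 and 0.914 of the group's whole range, above Dixon's 95% critical value for 4 values. Chance gives such a gap in about 1 in 20 groups, and the 10 genes move together, so these are not 3 separate cases. Library 1 was also the highest of its group for the other genes of the set except Alyref. Groups of 3 libraries are too small for this comparison.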

How the results depend on the processing

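Over 21 alternative settings the antibody log2 fold changes of the 10 genes were positive in 210 of 210 values in each comparison. They ran from 0.95 to 3.75 with PBS, from 1.46 to 4.16 with IFNa and from 1.27 to 3.86 averaged. The highest value with PBS came with a Y-linked covariate whose slope rests mainly on the IFNa libraries. Each gene was picked by the antibody difference and was higher in every UC7 library than in every IgG library. Leaving out libraries could therefore hardly turn a sign, so nothing is read from the count of positive values. The median of the 10 over single libraries left out ran from 1.32 to 1.99 with PBS, from 1.79 to 2.46 with IFNa and from 1.68 to 2.05 averaged. For IFNa over PBS none of the 210 values passed the threshold, and the lowest adjusted p was 0.256.

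The number of genes called depended strongly on the setting. By edgeR it was 1 with PBS, 12 with IFNa, 104 averaged, 315 for IFNa averaged and 0 for the interaction. DESeq2 called 64, 118, 291, 781 and 2 in that order. With single libraries left out the ranges were 0 to 4, 0 to 52, 27 to 136, 172 to 933 (without UC7-IFNa library 2) and 0 to 1. Without a filter 0 genes were called with PBS. With the Y-linked share as a covariate 23 were called with IFNa and 3 averaged. Without IgG-IFNa libraries 1 and 2 the counts were 5 with PBS, 3 with IFNa, 69 averaged and 4 for the interaction. The authors' table with limma gave 2 with IFNa. The cause of these shifts was not tested.

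Same-numbered libraries of different groups did not deviate together: r of their deviations from group means ran from -0.21 to 0.13 over 18 pairs, with 2 above 0.1. A fit with the replicate number as a block called 1 gene with IFNa, 6 averaged and 146 for IFNa averaged, with the 10 genes' median at 1.63, 1.93 and 1.78 with PBS, with IFNa and averaged.

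The sign of the IFNa value, for which no gene of the 10 passed the threshold, changed in some settings. Dexi was at -0.020 with upper-quartile scaling and -0.044 in the authors' table, and Ctbp1 at 0.00041 with the covariate. Without IgG-IFNa libraries 1 and 2, Dapk3 was at -0.18 and Alyref at 0.040. With single libraries left out, the ranges were -0.30 to 0.018 for Rac1, -0.18 to 0.083 for Arl8a, -0.17 to 0.069 for Ctbp1, -0.23 to 0.45 for Dapk3, -0.15 to 0.24 for Dexi, -0.31 to 0.063 for Mtch1 and -0.30 to 0.14 for Alyref. The median of the 10 then ran from -0.16 to 0.11. Srsf2 kept its antibody call in 15 of 21 settings, and with the replicate block it was at 1.20 (adjusted p = 0.09901, edgeR).

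Groups of 3 or 4 libraries limit precision, and the lowest count of the 10 genes in a library was 64. With PBS, antibody and sex-linked transcripts coincide, and with IFNa, antibody and Xist coincide.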
